A study of Mus musculus with 12 samples.

Results

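RNA-seq libraries from mouse dorsal root ganglia were divided here by a measured level, that of an Atxn3 transcript of 1000 bases. Libraries with a level of 10 TPM or more (a unit scaled to transcript length and library total) were called carriers and the rest non-carriers, which gave 6 carriers and 6 non-carriers among all 12 libraries. The study labelled its poly(A) libraries as WT or YAC Q84, male or female, all from mice at 24 weeks of age and with no treatment named. YAC Q84 is a transgenic line in which a yeast artificial chromosome brings in the human ATXN3 gene with a lengthened CAG repeat. The carriers were the libraries labelled Q84 male 1, Q84 female 1 to 4 and WT female 2. The 3 WT males, WT female 1, WT female 3 and Q84 female 5 were the non-carriers. Thus 2 libraries stood in a class that goes against their label, and with WT female 2 and Q84 female 5 apart, 5 carriers were labelled Q84 and 5 non-carriers WT. Sex was unbalanced, with 1 male among the carriers and 3 among the non-carriers, and it was a term in the tests of both sexes. Strain, copy number of the transgene and pooling of animals are not given in the sources used here. Separate animals are not stated either, and each p-value below reflects how far libraries of a class lie from each other.

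Ataxin-3, the product of Atxn3, is a deubiquitinase that trims ubiquitin chains from proteins, and a longer run of glutamines encoded by its CAG repeat causes spinocerebellar ataxia type 3 in people. Dorsal root ganglia hold the cell bodies of the sensory neurons of the trunk and limbs, together with satellite glia, Schwann cells, vessels and connective tissue. Their neurons are sorted by gene expression into peptidergic and non-peptidergic nociceptors, itch, cold and C-fibre touch neurons, and large myelinated touch and proprioceptive neurons.

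The sequence of the chosen transcript shows how it differs from the longest Atxn3 transcript, which is why both are printed at the point where they part. Sequences are from the GENCODE M21 transcript set of GRCm38, whose versions of both transcripts have the lengths listed in the deposited tables. Both lie on the minus strand of chromosome 12. In the transcript of 1000 bases, bases 900 to 962 are shown 5′ to 3′ with the stop codon in capitals, and in the transcript of 5363 bases, bases 903 to 1010 are shown with the 6 glutamine codons in capitals.
Atxn3 transcript of 1000 bases: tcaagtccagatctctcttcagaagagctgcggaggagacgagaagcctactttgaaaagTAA
Atxn3 longest transcript: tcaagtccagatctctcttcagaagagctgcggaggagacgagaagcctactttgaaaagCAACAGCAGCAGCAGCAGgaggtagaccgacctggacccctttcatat
The first 60 printed bases are the same in both. After them the longest transcript runs into the repeat, with 5 CAG codons among the 6, and its reading frame encodes 355 residues. The transcript of 1000 bases meets a stop codon at that point and encodes 291 residues, so it holds no repeat. The tables list mouse transcripts only, so which gene copy, mouse or human, the counted reads came from cannot be told from them.

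The level of the 1000-base transcript set the classes, and its values are therefore a description with no test. It was listed at 0 TPM in the 3 male WT libraries, at 0.266 TPM in WT female 1, 0.285 TPM in WT female 3 and 0.0612 TPM in Q84 female 5. Carriers labelled Q84 held 73.8 TPM in Q84 male 1 and 79.4, 71.9, 69.0 and 62.7 TPM in Q84 female 1 to 4. WT female 2 was the only library between, with 34.0 TPM, or 47.6% of what the other 5 carriers held on average (71.4 ± 6.14 TPM, SD, n = 5). The values on either side of the 10 TPM limit were thus 34.0 and 0.285 TPM, so that no library lay close to it. The longest transcript, which did not enter the rule, was at 14.7 ± 1.68 TPM in non-carriers and 15.1 ± 1.28 TPM in carriers (SD, n = 6 each), and the classes overlapped. Its lowest level, 11.4 TPM, was in Q84 female 5 and its highest, 16.1 TPM, in Q84 male 1 and WT female 2. Among the 3 other listed Atxn3 transcripts, that of 879 bases lay between 0.392 and 1.39 TPM in non-carriers and between 1.30 and 2.28 TPM in carriers, again with overlap. The remaining 2 did not exceed 0.445 TPM in any of the 12 libraries.

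**Figure D1:**
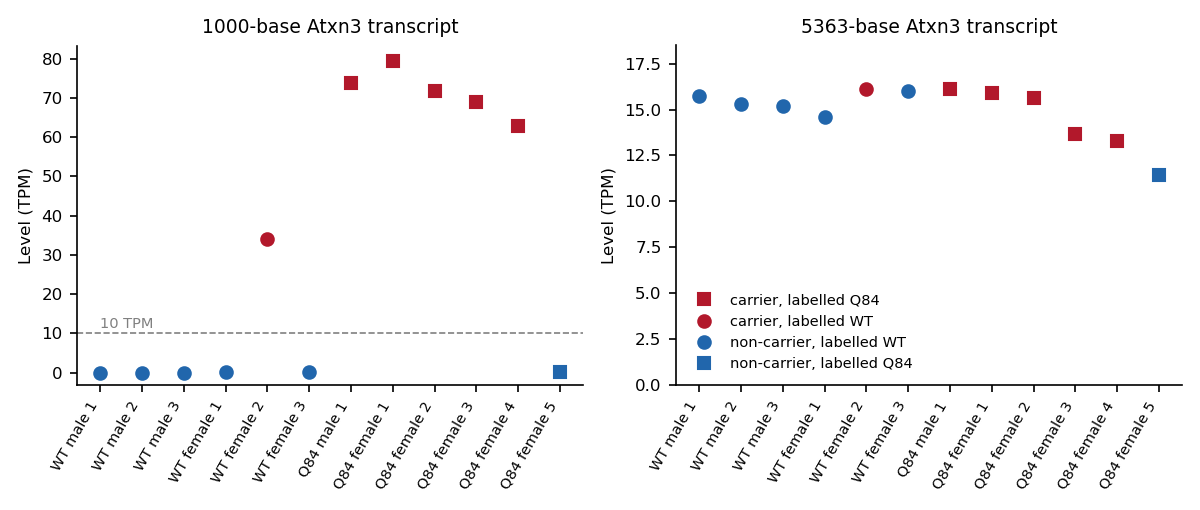
Level in TPM of the 1000-base Atxn3 transcript (left, with the 10 TPM limit dashed) and of the 5363-base transcript (right) in each of the 12 libraries; red marks carriers, blue non-carriers, squares the Q84 label and circles the WT label. On the left 5 libraries lie between 62.7 and 79.4 TPM, WT female 2 lies at 34.0 TPM and 6 lie at 0.285 TPM or less, while on the right all 12 lie between 11.4 and 16.1 TPM.

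Atxn3 itself and the markers Cpsf2 and Trip11 were part of how the classes were set or recognised, and they too are described without a test. Levels from here on are counts scaled to a common library total (CPM) but not to gene length, so they are compared between libraries and not between genes. Summed over its transcripts, Atxn3 (ENSMUSG00000021189) lay between 46.4 and 62.9 CPM (median 55.1) in non-carriers and between 75.1 and 107 CPM (median 98.7) in carriers. Cpsf2, which encodes a subunit of the complex that cleaves pre-mRNA 3′ ends, lay between 96.4 and 110.3 CPM (median 100.5) in non-carriers and between 141 and 191 CPM (median 183) in carriers. Trip11, which encodes a golgin of the Golgi apparatus, lay between 38.8 and 57.6 CPM (median 44.8) in non-carriers and between 60.4 and 78.5 CPM (median 72.7) in carriers. In all 3 genes the classes did not overlap, and WT female 2 was the lowest carrier, at 75.1, 141 and 60.4 CPM. Among non-carriers Q84 female 5 was the lowest for Atxn3 (46.4 CPM) and the highest for Trip11 (57.6 CPM).

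The other genes of a list of ATXN3 neighbours, picked for their place beside the gene in mouse or human, did not pass the test in the 12 libraries. This was so for 8 tested genes, beside 6.31% of all tested genes that passed. Catsperb, a sperm calcium channel subunit, was too low to be tested. Tc2n went from 5.79 ± 0.524 CPM in non-carriers to 4.13 ± 1.06 CPM in carriers (log2 fold change -0.59, adjusted p = 0.0508), and Lgmn, which encodes a lysosomal protease, went from 370.3 ± 43.8 CPM in non-carriers to 283 ± 40.1 CPM in carriers (log2 fold change -0.38, adjusted p = 0.0536; SD, n = 6 each for both). Both passed once WT female 2 was left out, at -0.66 (adjusted p = 0.0261) and -0.46 (adjusted p = 0.0067). For Golga5, Ppp4r3a, Fbln5, Rin3 and Ndufb1-ps the log2 fold changes ran from -0.06 to 0.45, and that of Slc24a4, a gene with at most 0.640 CPM in any library, was -0.98. The sign of the value for Ndufb1-ps turned in 6 of the alternatives tried and that of Fbln5 in 1.

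Library totals lay between 66490481 and 86891563 estimated counts. They averaged 72606699 in carriers and 78290735 in non-carriers (p = 0.0996 in a two-sided exact permutation test, n = 6 each, the smallest it allows being 0.00216). Markers of the tissue were present in all 12, with Isl1, a transcription factor of sensory neurons, at 119 ± 11.2 CPM in non-carriers and 119 ± 8.53 CPM in carriers (SD, n = 6 each). Isl1 does not stand for its list, described below, whose 16 tested genes had a median log2 fold change of -0.56. Mitochondrially encoded genes took 8.62 ± 1.86% of counts in non-carriers and 9.42 ± 1.20% in carriers (SD, n = 6 each; p = 0.387 in a two-sided exact permutation test), with the highest share, 11.9%, in Q84 female 5. Summed markers of other cells and tissues varied between libraries: muscle, red blood cell, granulocyte and adipocyte markers summed highest in Q84 male 1, myelin markers in WT male 1 and surface epithelium markers in WT female 1. Whether that RNA came from inside or around the ganglion was not tested. Those sums stand below beside the lists.

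Carriers and non-carriers differed across many genes, mostly with less RNA in carriers. Of 16981 genes tested, 1072 passed (edgeR's quasi-likelihood test with sex in the model, adjusted p under 0.05), which is 6.31% of them, and 3279 (19.3%) had an unadjusted p under 0.05. In carriers 249 genes were higher (1.47%), the 3 described markers among them, and 823 were lower (4.85%). The median log2 fold change was 0.56 over the higher genes and -0.84 over the lower ones, beside -0.01 over all genes tested. A change of 1 or more on the log2 scale was reached by 30 of the higher and 320 of the lower genes. Levels of the classes did not overlap in 715 genes (4.21%), 196 of them higher (1.15%) and 519 lower (3.06%) in carriers. Of these, 592 also passed the test (3.49%), and 468 of those had a mean of 1 CPM or more (2.76%). The count rested in part on single libraries: it fell to 530 without Q84 male 1, the only male carrier, and to 654 without WT female 3, and the other libraries left out in turn gave up to 1367. DESeq2 called 1651 genes in the 12 libraries.

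The same split was fitted without the libraries in doubt. Without WT female 2, whose transcript level was intermediate, 1337 of 17114 genes passed (7.81%), 317 higher (1.85%) and 1020 lower (5.96%), with 3500 (20.5%) at an unadjusted p under 0.05. In the 10 libraries whose label and class go together, 1194 of 16953 passed (7.04%), 260 higher (1.53%) and 934 lower (5.51%), with 3422 (20.2%) at an unadjusted p under 0.05. Among the 8 female libraries, where sex is no factor, 406 of 17241 passed (2.35%), 101 higher (0.586%) and 305 lower (1.77%), with 2715 (15.7%) at an unadjusted p under 0.05. With all 12 libraries grouped by their labels instead, 1 of 16981 genes passed (0.00589%), while 2433 (14.3%) had an unadjusted p under 0.05. These fits share most of their libraries and are not independent of each other. Single libraries moved them too: without WT male 1 the count rose from 1337 to 2021 and from 1194 to 2000, and without Q84 male 1 the counts were 874 and 686. Without WT female 3 the count was 582 in the 10 libraries and 124 in the females, where leaving out any of the 5 Q84 females gave between 176 and 241 and leaving out WT female 2 gave 1018.

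**Figure D2:**
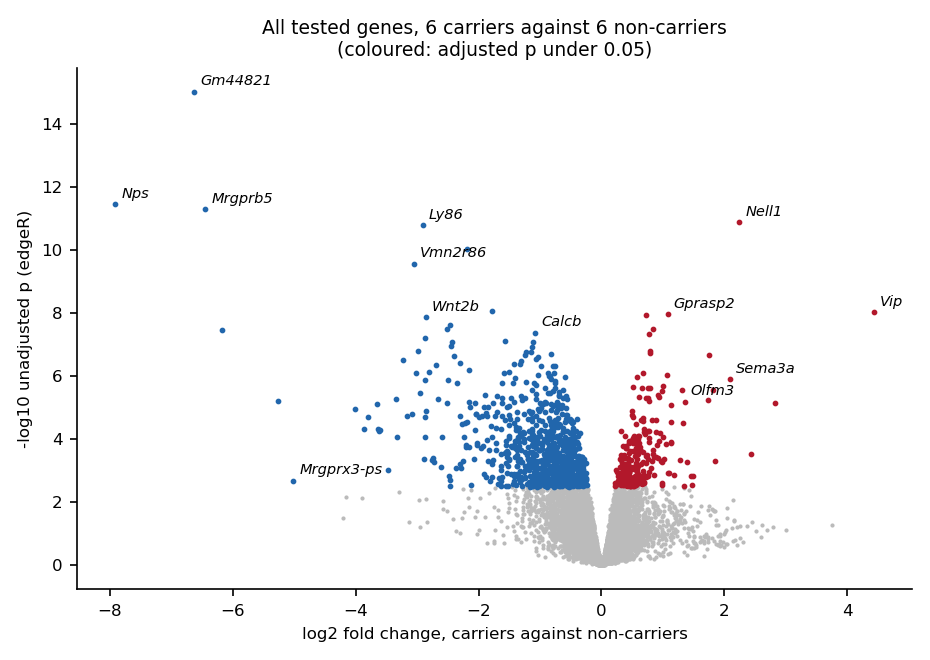
Each point is 1 of the 16981 genes tested, with the log2 fold change of carriers against non-carriers (x axis) and -log10 of the unadjusted p of edgeR (y axis); red genes are higher and blue genes lower in carriers at an adjusted p under 0.05, grey genes did not pass. Blue points (823) outnumber red ones (249) and reach a log2 fold change of -7.91, against 4.44 on the red side.

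The largest falls were in genes that were nearly silent in carriers, including WT female 2, and at full level in Q84 female 5. Only genes without overlap between the classes could be named as largest falls or rises. By that choice WT female 2 and Q84 female 5 stood on the side of their class in each of them. Nps (ENSMUSG00000073804, chromosome 7), which encodes neuropeptide S, lay between 4.63 and 6.37 CPM (median 5.65) in non-carriers and between 0 and 0.0519 CPM (median 0.0203) in carriers. The classes were far apart, WT female 2 held 0.0403 CPM and Q84 female 5 5.79 CPM, and the log2 change was -7.91 (SE 0.36, adjusted p = 2.75e-08), a size that depends on the handling of near-zero counts. Gm44821 (ENSMUSG00000109540, chromosome 7) lay between 77.1 and 109 CPM (median 83.7) in non-carriers and between 0.568 and 1.26 CPM (median 0.999) in carriers, for a log2 change of -6.63 (SE 0.16, adjusted p = 1.59e-11). WT female 2 was the highest carrier at 1.26 CPM, and Q84 female 5, at 84.2 CPM, stood within the other non-carriers. Mrgprb5 (ENSMUSG00000070551, chromosome 7), a Mas-related receptor of sensory neurons, lay between 9.85 and 19.1 CPM (median 15.6) in non-carriers and between 0.0924 and 0.376 CPM (median 0.163) in carriers, for a log2 change of -6.45 (SE 0.29, adjusted p = 2.75e-08). Here too WT female 2 was the highest carrier, at 0.376 CPM, and far from any non-carrier.

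The pseudogene Mrgprx3-ps, of the same family, set WT female 2 apart from the other carriers. It lay between 34.4 and 48.9 CPM (median 45.03) in non-carriers and between 0.142 and 8.43 CPM (median 0.239) in carriers, and WT female 2, at 8.43 CPM, was the highest carrier by far and still below every non-carrier. The log2 change was -5.01 (SE 1.19, adjusted p = 0.0381) with this library and -7.56 (adjusted p = 3.94e-10) without it. Its call in all 12 was lost in 10 of the 12 fits that left out 1 library (log2 fold changes of -5.26 to -4.53 in those 10), the fits without WT female 2 and without WT male 1 being the exceptions. The Mas-related family was looked at as a whole after these values were seen, so it carries no test. Of its 19 tested members 15 had a negative log2 fold change, with a median of -0.48, and 6 did not overlap between the classes, all 6 lower in carriers, beside 4.21% of all tested genes without overlap and 3.06% without overlap and lower. Mrgprx1 (-0.04) and Mrgprb13 (0.02) differed little. Members of this family are close copies, so how the authors' tool divided their reads is uncertain.

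Genes outside the Mas-related family were among the largest falls as well. Ly86, which encodes the MD-1 protein that pairs with a receptor of immune cells, lay between 93.7 and 196 CPM (median 135) in non-carriers and between 16.1 and 29.2 CPM (median 20.8) in carriers, for a log2 change of -2.91 (SE 0.14, adjusted p = 5.34e-08). Its highest value was in Q84 female 5 and its highest carrier was WT female 2 (29.2 CPM). Vmn2r86, of the vomeronasal receptors, lay between 7.31 and 9.70 CPM (median 8.38) in non-carriers and between 0.672 and 1.39 CPM (median 1.06) in carriers, for a log2 change of -3.05 (SE 0.19, adjusted p = 6.42e-07). Ighg2c, an immunoglobulin heavy chain constant region, went from 3.83 ± 1.54 CPM in non-carriers to 0.528 ± 0.239 CPM in carriers (SD, n = 6 each, log2 fold change -2.87). The other named falls were Cyp2j5, a cytochrome P450 (-3.80), Gm5581 (-3.63), Slurp2, a secreted Ly6-type protein (-3.24), Gnb3, a G protein beta subunit (-3.02), and Slc10a2, a bile acid transporter (-2.95). All 5 stood at 4.98 CPM or less in every library and kept their call with each library left out.

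Nell1, Sema3a, Olfm3 and Gprasp2 were among the 12 largest rises with a mean of 1 CPM or more and no overlap. Nell1 (ENSMUSG00000055409, chromosome 7), which encodes a secreted glycoprotein with EGF-like repeats, lay between 3.51 and 4.76 CPM (median 4.44) in non-carriers and between 17.2 and 22.7 CPM (median 19.3) in carriers, for a log2 change of 2.24 (SE 0.11, adjusted p = 5.34e-08). Here WT female 2, at 17.2 CPM, was the lowest carrier but close to the next, and Q84 female 5, at 3.51 CPM, was the lowest of all 12. Gprasp2, which helps sort G protein-coupled receptors, lay between 93.1 and 106 CPM (median 99.04) in non-carriers and between 155 and 224 CPM (median 215) in carriers, for a log2 change of 1.07 (SE 0.09, adjusted p = 1.73e-05). In this gene WT female 2 stood between the classes at 155 CPM. Sema3a, which encodes a secreted repellent of growing axons, lay between 0.294 and 0.689 CPM (median 0.436) in non-carriers and between 1.20 and 2.48 CPM (median 2.12) in carriers, for a log2 change of 2.09 (SE 0.26, adjusted p = 0.000342). WT female 2 was again the lowest carrier. Olfm3, an olfactomedin, lay between 7.46 and 17.2 CPM (median 10.7) in non-carriers and between 20.2 and 32.2 CPM (median 26.6) in carriers, for a log2 change of 1.35 (SE 0.19, adjusted p = 0.000945), with WT male 1 the highest non-carrier at 17.2 CPM.

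The remaining rises that the rule named, for which no overlap was a condition, kept their call with each library left out. They were Grxcr2, needed for the hair bundles of the inner ear (1.75), Vwde (1.33), Pcdh11x, an X-linked protocadherin (1.13), Nudt17, a Nudix hydrolase (1.13), Epha3, an ephrin receptor (1.07), Mgat4c, an enzyme of glycan branching (1.00), Lmo3, a LIM-only regulator (0.99), and Cd83, an immune cell surface protein (0.98, all log2 fold changes). In 6 of these 8 WT female 2 was the lowest carrier, the exceptions being Pcdh11x and Lmo3. In Lmo3 it stood at 4.68 CPM, above the carrier median of 4.23 CPM.

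**Figure D3:**
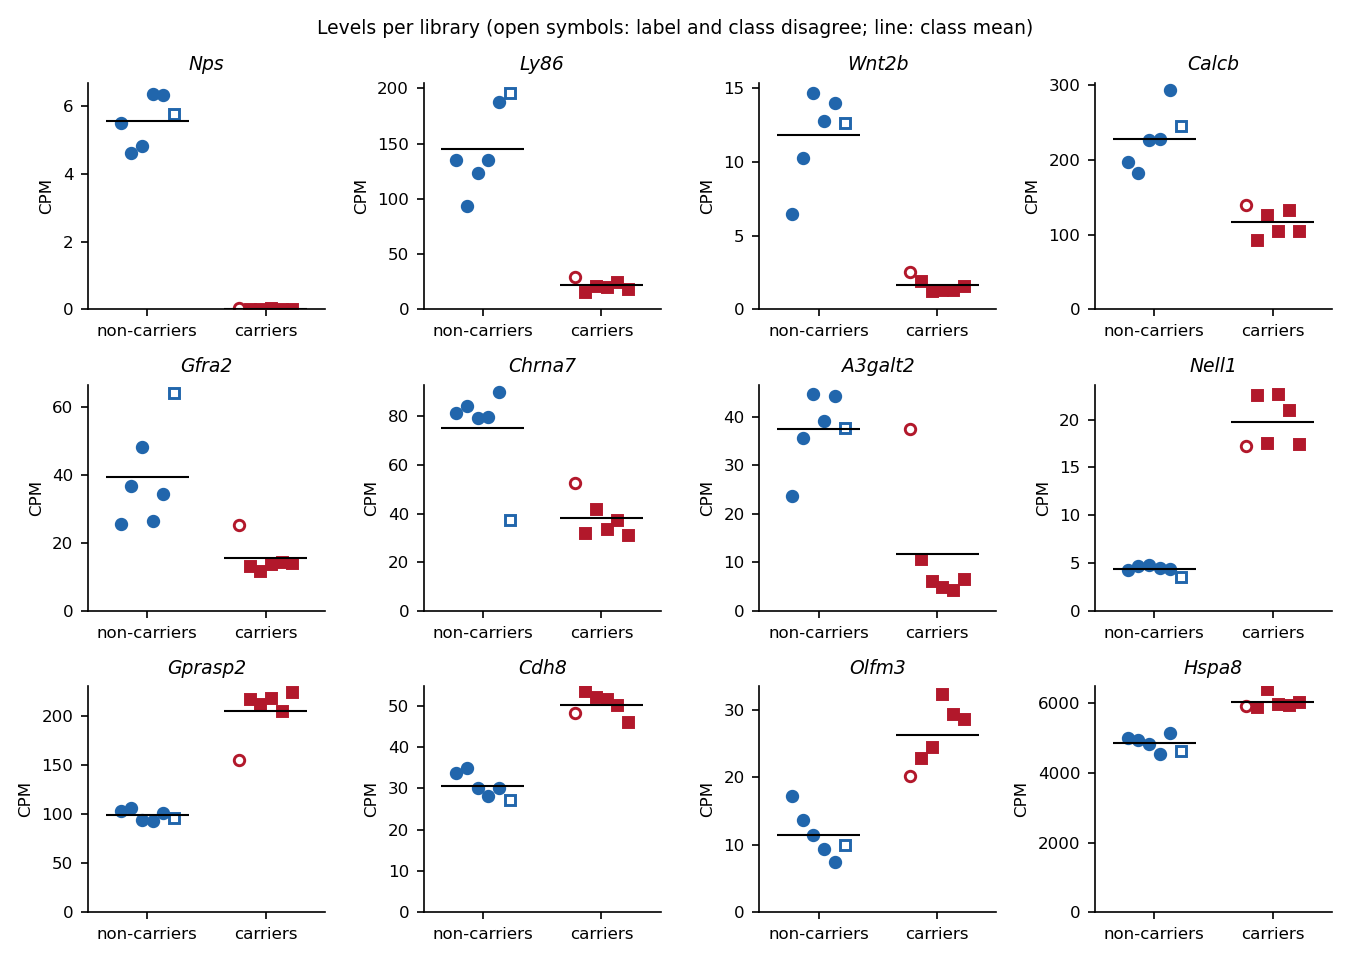
CPM per library (y axis, linear, from 0) of 12 named genes in non-carriers (blue) and carriers (red); circles are libraries labelled WT and squares libraries labelled Q84, open symbols mark the 2 libraries whose class goes against their label, and lines are class means. The open red circle (WT female 2) lies with the carriers in Nps and Nell1, both named for not overlapping between the classes. It lies with the non-carriers in A3galt2 (37.5 CPM), and the open blue square (Q84 female 5) lies with the carriers in Chrna7 (37.4 CPM).

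Genes of non-peptidergic and itch nociceptors, the small unmyelinated neurons of pain and itch in the skin, were lower in carriers. Of 24 tested members 0 rose, 15 fell and 9 did not pass, beside 4.85% of all tested genes that fell. The median log2 fold change of the list was -0.94, against -0.01 over all genes. Without WT female 2, 17 fell, as did 17 in the 10 libraries of concordant label, 9 fell without Q84 male 1, and 7 fell in the 8 female libraries. Lpar3, a lysophosphatidic acid receptor, lay between 45.7 and 98.3 CPM (median 84.4) in non-carriers and between 23.1 and 55.2 CPM (median 28.3) in carriers, for a log2 change of -1.40 (SE 0.25, adjusted p = 0.00595). The overlap came from a pair of libraries, WT female 2 at 55.2 and WT male 1 at 45.7 CPM.

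Mrgpra3, the receptor through which chloroquine causes itch, went from 21.8 ± 5.36 CPM in non-carriers to 12.2 ± 3.21 CPM in carriers, and Sst, which encodes somatostatin and marks an itch population, from 12.1 ± 5.42 CPM in non-carriers to 5.17 ± 3.21 CPM in carriers (SD, n = 6 each). Their log2 fold changes were -1.01 (SE 0.15, adjusted p = 0.00141) and -1.51 (SE 0.30, adjusted p = 0.0102), and for Sst WT female 2, at 11.4 CPM, lay within the non-carriers. Gfra2, the receptor subunit for neurturin, lay between 25.7 and 64.1 CPM (median 35.7) in non-carriers and between 11.7 and 25.2 CPM (median 13.95) in carriers, for a log2 change of -1.42 (SE 0.26, adjusted p = 0.00686). The highest library was Q84 female 5, and the highest carrier, WT female 2 at 25.2 CPM, nearly met the lowest non-carrier, WT male 1. The summed level of the list ran over 1790 to 3082 CPM in non-carriers and 1405 to 2431 CPM in carriers, with WT female 2 at 2431, WT male 1 at 1790 and Q84 female 5, the highest, at 3082 CPM. In ganglion tissue, fewer cells of a type and less RNA per cell cannot be told apart.

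On the list of peptidergic nociceptors, whose terminals release neuropeptides, 0 of 14 tested members rose, 6 fell and 8 did not pass, beside 4.85% of all tested genes that fell, with a median of -0.45, and 4 fell without Q84 male 1. Calca, which encodes calcitonin gene-related peptide, lay between 1592 and 2079 CPM (median 1794) in non-carriers and between 771 and 1284 CPM (median 1079) in carriers, for a log2 change of -0.84 (SE 0.11, adjusted p = 0.000667). Calcb, its beta form, lay between 183 and 293 CPM (median 226) in non-carriers and between 93.1 and 139.6 CPM (median 116) in carriers, for a log2 change of -1.08 (SE 0.10, adjusted p = 4.1e-05). The classes did not overlap in either, and in both WT female 2 was the highest carrier (1284 and 139.6 CPM). Rxfp1, a relaxin receptor, fell by 2.16 on the log2 scale, from a mean of 1.76 to 0.457 CPM. Adcyap1, the neuropeptide PACAP, fell by 0.51, a call lost without Q84 male 1 (adjusted p = 0.069). Summed levels were 2710 to 3324 CPM in non-carriers and 1476 to 2295 CPM in carriers.

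On the list of C-fibre touch neurons, which respond to gentle stroking, 0 of 8 tested members rose, 6 fell and 2 did not pass, beside 4.85% of all tested genes that fell, with a median of -1.19. With 1 library left out the count was 3 in 6 fits: those without WT male 2, WT female 3, Q84 male 1, or any of Q84 female 1, 4 and 5. Wnt2b, a Wnt ligand, lay between 6.49 and 14.7 CPM (median 12.7) in non-carriers and between 1.26 and 2.57 CPM (median 1.48) in carriers, for a log2 change of -2.86 (SE 0.24, adjusted p = 1.91e-05). No library lay between the classes, and WT female 2 was the highest carrier at 2.57 CPM. P2ry1, an ADP receptor, lay between 102 and 181 CPM (median 161) in non-carriers and between 61.6 and 84.7 CPM (median 73.6) in carriers, for a log2 change of -1.06 (SE 0.14, adjusted p = 0.000816), again without overlap. Cacna1h, a T-type calcium channel, had a log2 change of -0.95 (SE 0.25, adjusted p = 0.035) and overlapped, and its call was lost in 6 of the 12 fits that left out 1 library. Q84 female 5 was its highest library, at 3.36 CPM.

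Large myelinated touch and proprioceptive neurons showed the same direction in part of their list. Here 0 of 18 tested members rose, 6 fell and 12 did not pass, beside the same 4.85%, with a median of -0.60, and 3 fell without Q84 male 1 or without Q84 female 5 (median -0.40 without the latter). Calb1, the calcium buffer calbindin, lay between 105 and 138 CPM (median 131) in non-carriers and between 61.5 and 98.8 CPM (median 79.5) in carriers, for a log2 change of -0.76 (SE 0.09, adjusted p = 0.000379), and the classes did not overlap. Ntrk2, the receptor of brain-derived neurotrophic factor, lay between 139 and 168 CPM (median 154) in non-carriers and between 111 and 137 CPM (median 117) in carriers, for a log2 change of -0.38 (SE 0.07, adjusted p = 0.00647). The separation in Ntrk2 was narrow, with WT female 2 (137 CPM) next to WT male 1 (139 CPM). Necab2, a calcium-binding protein, fell by 1.17 and Kcnc1, a fast potassium channel, by 1.07 on the log2 scale. The call of Kcnc1 was lost without Q84 male 1 (adjusted p = 0.0615) or Q84 female 5 (adjusted p = 0.0767), the latter being its highest library at 13.5 CPM.

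Of 4 tested genes on the list of cold neurons 1 rose, beside 1.47% of all tested genes. Cdh8, a cadherin of sensory neurons, lay between 27.2 and 34.9 CPM (median 30.1) in non-carriers and between 46.02 and 53.4 CPM (median 50.8) in carriers, for a log2 change of 0.77 (SE 0.07, adjusted p = 4.33e-05). The classes did not overlap, and WT female 2 stood inside the carriers at 48.3 CPM. Trpm8, the cold receptor itself, did not pass, with a log2 fold change of -0.67 (adjusted p = 0.0993). In the 11 libraries without WT female 2, 2 members of this list fell, beside 5.96% of all genes tested there.

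Ion channel genes moved unevenly. Of 27 potassium channels and partners of the Kv4 channels 1 rose, 10 fell and 16 did not pass, beside 1.47% of all tested genes that were higher and 4.85% that were lower, with a median of -0.52. The count of falls was 3 without Q84 male 1, 5 without Q84 female 1 and 6 without each of WT male 2, WT female 3 and Q84 female 2 to 5. Kcnip4, which binds Kv4 channels, lay between 334 and 436 CPM (median 365) in non-carriers and between 209 and 311 CPM (median 246) in carriers, for a log2 change of -0.66 (SE 0.10, adjusted p = 0.00124). Kcnv1, a silent subunit that modifies other channels, lay between 56.1 and 74.1 CPM (median 65.2) in non-carriers and between 27.9 and 56.03 CPM (median 32.8) in carriers, for a log2 change of -0.86 (SE 0.16, adjusted p = 0.00686), and WT female 2 at 56.03 CPM touched the lowest non-carrier. Kcng2, another silent subunit at 1.80 CPM or less, fell by 1.31 on the log2 scale. The member that rose was Kcnd2, the Kv4.2 channel, which lay between 1.52 and 2.94 CPM (median 1.63) in non-carriers and between 3.14 and 4.08 CPM (median 3.404) in carriers, for a log2 change of 0.82 (SE 0.18, adjusted p = 0.0146). Its call was lost without WT female 3 (adjusted p = 0.0555) or Q84 male 1 (adjusted p = 0.0817).

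Of 11 neuronal sodium channel genes 1 fell and 10 did not pass, beside 4.85% of all tested genes that fell, with a median of -0.31 that was -0.14 without Q84 female 5. Scn4b, an auxiliary beta subunit, lay between 97.3 and 180.0 CPM (median 125) in non-carriers and between 53.8 and 103 CPM (median 71.2) in carriers, for a log2 change of -0.79 (SE 0.19, adjusted p = 0.0252). Its call was lost without each of WT female 1, WT female 3, Q84 male 1 and Q84 female 1 to 3, with adjusted p-values up to 0.118, while 4 members fell without WT male 1. The nociceptor channels Scn10a and Scn11a did not pass, with log2 fold changes of -0.77 and -0.80.

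Nicotinic acetylcholine receptor subunits, of ligand-gated channels for acetylcholine, were lower in 6 of 10 tested genes, beside 4.85% of all tested genes, and the other 4 did not pass (median -0.83). The count was 2 without Q84 male 1 and 3 without WT female 3. Chrna3 lay between 1.72 and 4.10 CPM (median 2.06) in non-carriers and between 0.242 and 0.968 CPM (median 0.590) in carriers, for a log2 change of -2.16 (SE 0.31, adjusted p = 0.000968), and Chrna10, at 1.51 CPM or less, one of -2.35 (SE 0.30, adjusted p = 0.000408). Chrna6 lay between 120.5 and 154 CPM (median 129.7) in non-carriers and between 66.04 and 125 CPM (median 79.97) in carriers, for a log2 change of -0.70 (SE 0.14, adjusted p = 0.0102), with WT female 2, at 125 CPM, inside the non-carriers. Without Q84 male 1 the call of Chrna6 was lost (adjusted p = 0.0597).

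Chrna7, which encodes the alpha7 subunit, followed the label of Q84 female 5 and not its class. It lay at 81.3, 84.3 and 79.1 CPM in WT male 1 to 3, 79.6 CPM in WT female 1 and 90.1 CPM in WT female 3. Carriers labelled Q84 held between 31.4 and 41.7 CPM, WT female 2 52.5 CPM and Q84 female 5 37.4 CPM. Thus 5 non-carriers stood above all other libraries and Q84 female 5 stood among the carriers. The log2 change was -0.96 (SE 0.21, adjusted p = 0.0183) by class, and the call was lost without WT female 1, WT female 3 or Q84 male 1 (adjusted p = 0.0509, 0.0807 and 0.103). In the 10 libraries of concordant label it was -1.28 (adjusted p = 8.88e-06), and it was the 1 gene that passed when libraries were grouped by label.

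Among 16 tested transcription factors of sensory neurons 1 rose, 5 fell and 10 did not pass, beside 1.47% of all tested genes that were higher and 4.85% that were lower, with a median of -0.56. The rise, of Pou4f3, was lost in 8 of 12 fits that left out 1 library. The count of falls was 9 without WT female 1 and 3 without Q84 male 1 or Q84 female 5, the median without the latter being -0.36. Hoxd1, a homeobox factor of nociceptors, lay between 10.8 and 16.6 CPM (median 12.97) in non-carriers and between 4.38 and 7.65 CPM (median 5.34) in carriers, for a log2 change of -1.32 (SE 0.15, adjusted p = 0.000178). Ldb2, a partner of LIM homeodomain factors, lay between 127 and 159.8 CPM (median 142) in non-carriers and between 74.5 and 109 CPM (median 76.6) in carriers, for a log2 change of -0.85 (SE 0.10, adjusted p = 0.000306). Both genes kept their call with each library left out, and WT female 2 was the highest carrier in both. Pou4f1, which maintains sensory neuron identity, fell by 0.96 on the log2 scale with its highest level, 96.7 CPM, in Q84 female 5. Its relative Pou4f2 fell by 0.89, a call lost without Q84 male 1 (adjusted p = 0.0946) or Q84 female 5 (adjusted p = 0.0811).

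Synaptic vesicle genes, which all neurons use, gave 0 higher and 1 lower of 16 tested, beside 1.47% of all tested genes that were higher and 4.85% that were lower, with a median of -0.07. The summed level of the list overlapped between the classes, with 5484 to 6625 CPM in non-carriers and 5584 to 5995 CPM in carriers. Sv2b, a vesicle glycoprotein, lay between 368 and 549.7 CPM (median 464) in non-carriers and between 304 and 395 CPM (median 322) in carriers, for a log2 change of -0.43 (SE 0.10, adjusted p = 0.0189). Its lowest non-carrier was Q84 female 5, and its call was lost without WT female 1, WT female 3 or Q84 male 1 (adjusted p = 0.0524, 0.0651 and 0.132).

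Of 17 tested genes that respond to nerve injury 2 rose, 3 fell and 12 did not pass, beside 1.47% of all tested genes that were higher and 4.85% that were lower, with a median of -0.15, and without Q84 male 1 no member fell. Vip, which encodes vasoactive intestinal peptide, lay between 0.0236 and 0.163 CPM (median 0.0337) in non-carriers and between 0.805 and 2.06 CPM (median 1.59) in carriers, for a log2 change of 4.44 (SE 0.36, adjusted p = 1.7e-05). The highest non-carrier was Q84 female 5 at 0.163 CPM, the levels were low throughout, and the size of the change depends on the handling of near-zero counts. Lmo7, a LIM domain protein, rose from 3.98 ± 0.466 CPM in non-carriers to 7.502 ± 1.003 CPM in carriers (SD, n = 6 each), the log2 change being 0.94 (SE 0.13, adjusted p = 0.000773). Atf3, the transcription factor that axon damage switches on, lay between 4.26 and 7.58 CPM (median 5.76) in non-carriers and between 2.94 and 3.83 CPM (median 3.29) in carriers, for a log2 change of -0.72 (SE 0.15, adjusted p = 0.0116), and that call was lost without Q84 male 1 (adjusted p = 0.0809). Of 11 tested immediate early genes 0 rose and 1 fell, Arc, at 0.579 CPM or less, whose call was lost in 9 of 12 fits that left out 1 library (median of the list 0.11).

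On the list of the unfolded protein and integrated stress response 0 of 16 rose and 1 fell, beside 1.47% of all tested genes that were higher and 4.85% that were lower (median -0.05). That was Ddit3, a transcription factor of prolonged stress, which lay between 22.04 and 27.6 CPM (median 23.7) in non-carriers and between 19.1 and 22.2 CPM (median 20.6) in carriers with a call lost in 8 of 12 fits that left out 1 library (log2 fold change -0.28, adjusted p = 0.037). Of 13 chaperones 1 rose and 0 fell (median 0.04), and 7 had a positive log2 fold change. Their summed level did not overlap between the classes, with 11047 to 12577 CPM in non-carriers and 13260 to 13927.5 CPM in carriers. Hspa8, the member that rose, is part of that sum. Hspa8, the constitutive Hsp70 of the cytosol, lay between 4537 and 5136 CPM (median 4887) in non-carriers and between 5884 and 6391 CPM (median 5948) in carriers, for a log2 change of 0.32 (SE 0.07, adjusted p = 0.0132). The classes did not overlap, WT female 2 and Q84 female 5 stood with their class at 5906 and 4634 CPM, and the call was lost without WT female 1 (adjusted p = 0.0535). On the list of ubiquitin and autophagy partners of ataxin-3, 18 of 19 genes did not pass and the other was Atxn3 itself, beside 6.31% of all tested genes that passed in either direction, with log2 fold changes of the list from -0.26 to 0.79 and a median of -0.08. The 13 mitochondrially encoded genes did not pass in the 12 libraries (median 0.02). In the 10 libraries of concordant label 1 of them rose and the median was 0.28, beside 1.53% of all genes tested there that were higher.

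Lists of cells other than neurons were measured alongside. Their counts stand beside 6.31% of all tested genes that passed, 1.47% higher and 4.85% lower. Lists this short would hold few called genes at those shares. Satellite glia gave 0 of 13 and myelin genes 0 of 18 past the test, with medians of -0.12 and 0.15. Their summed levels ran over 4173 to 4972 CPM in non-carriers and 4300 to 4637 CPM in carriers for satellite glia, and 2929 to 5063 CPM in non-carriers and 2682 to 4640 CPM in carriers for myelin. Of macrophage genes 0 of 15 passed (median 0.24). Of 14 fibroblast genes 1 rose, Pdgfra, a growth factor receptor, with between 14.96 and 16.7 CPM (median 15.5) in non-carriers and between 17.9 and 27.5 CPM (median 21.5) in carriers and a log2 change of 0.52 (SE 0.10, adjusted p = 0.00638). That call was lost without Q84 male 1 (adjusted p = 0.0804). Of 14 endothelial and pericyte genes 1 fell, Rgs5, a regulator of G protein signalling known from pericytes, which lay between 291 and 491 CPM (median 391) in non-carriers and between 134 and 251 CPM (median 149.7) in carriers, for a log2 change of -1.31 (SE 0.17, adjusted p = 0.000736). The 13 other genes of that list did not pass, and 10 of the 14 had a positive log2 fold change (median 0.22).

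Markers of blood, muscle and fat had positive medians, and 1 of them, a granulocyte gene, passed, beside 6.31% of all tested genes. Of 10 granulocyte genes 1 rose (median 1.20). This was Mpo, myeloperoxidase, with between 0.351 and 2.09 CPM (median 1.07) in non-carriers and between 0.995 and 7.84 CPM (median 1.71) in carriers, for a log2 change of 1.46 (SE 0.36, adjusted p = 0.0314) and a call lost in 8 of 12 fits that left out 1 library (adjusted p up to 0.269, without Q84 male 1). Without WT female 1, 5 granulocyte genes rose. The highest Mpo level was in Q84 male 1, at 7.84 CPM. Of red blood cell genes 0 of 8 (median 1.21), of muscle genes 0 of 11 (1.92) and of adipocyte genes 0 of 8 (1.17) passed. Their summed levels overlapped between the classes, with 34.5 to 259 CPM in non-carriers and 63.7 to 437 CPM in carriers for granulocyte, 208 to 1112 CPM in non-carriers and 333 to 1865 CPM in carriers for red blood cell, 129.9 to 561 CPM in non-carriers and 147 to 1392 CPM in carriers for muscle and 6.42 to 40.6 CPM in non-carriers and 7.59 to 216 CPM in carriers for adipocyte markers. In all 4 the highest library was Q84 male 1, and without it the adipocyte median was 0.068 and the muscle median 1.15. Without WT female 1 the granulocyte median was 1.97. WT male 1 was the highest non-carrier for each of the 4, at 259, 1112, 561 and 40.6 CPM. The part of these tissues in the neuronal results was not tested.

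Surface epithelium markers, of which 4 of 10 were high enough to test, gave 0 higher and 2 lower, beside 1.47% of all tested genes that were higher and 4.85% that were lower. The count was 1 without WT female 1, and also without each of WT male 1 to 3, WT female 2 and Q84 female 2. It was 0 without Q84 female 1, 3 or 4. Without WT female 1 the median of the list went from -2.31 to -0.76. Their summed level was 235 CPM in WT female 1, and in the other 11 libraries it lay between 4.51 and 6.86 CPM. Krt1, a keratin of the epidermis, and Serpinb3a, a protease inhibitor of epithelia, had log2 fold changes of -2.47 (SE 0.62, adjusted p = 0.0378) and -3.47 (SE 0.79, adjusted p = 0.023). WT female 1 held 20.2 and 7.002 CPM of them. Without it Serpinb3a did not pass (log2 fold change -1.38, adjusted p = 0.207), and its call was also lost without each of Q84 male 1 and Q84 female 1, 3 and 4. Krt1 kept its call without WT female 1, with a smaller log2 fold change of -0.97 (adjusted p = 0.0261). The call of Krt1 was lost in 8 of 12 fits that left out 1 library, with log2 fold changes of -2.54 to -2.34 in those 8.

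**Figure D4:**
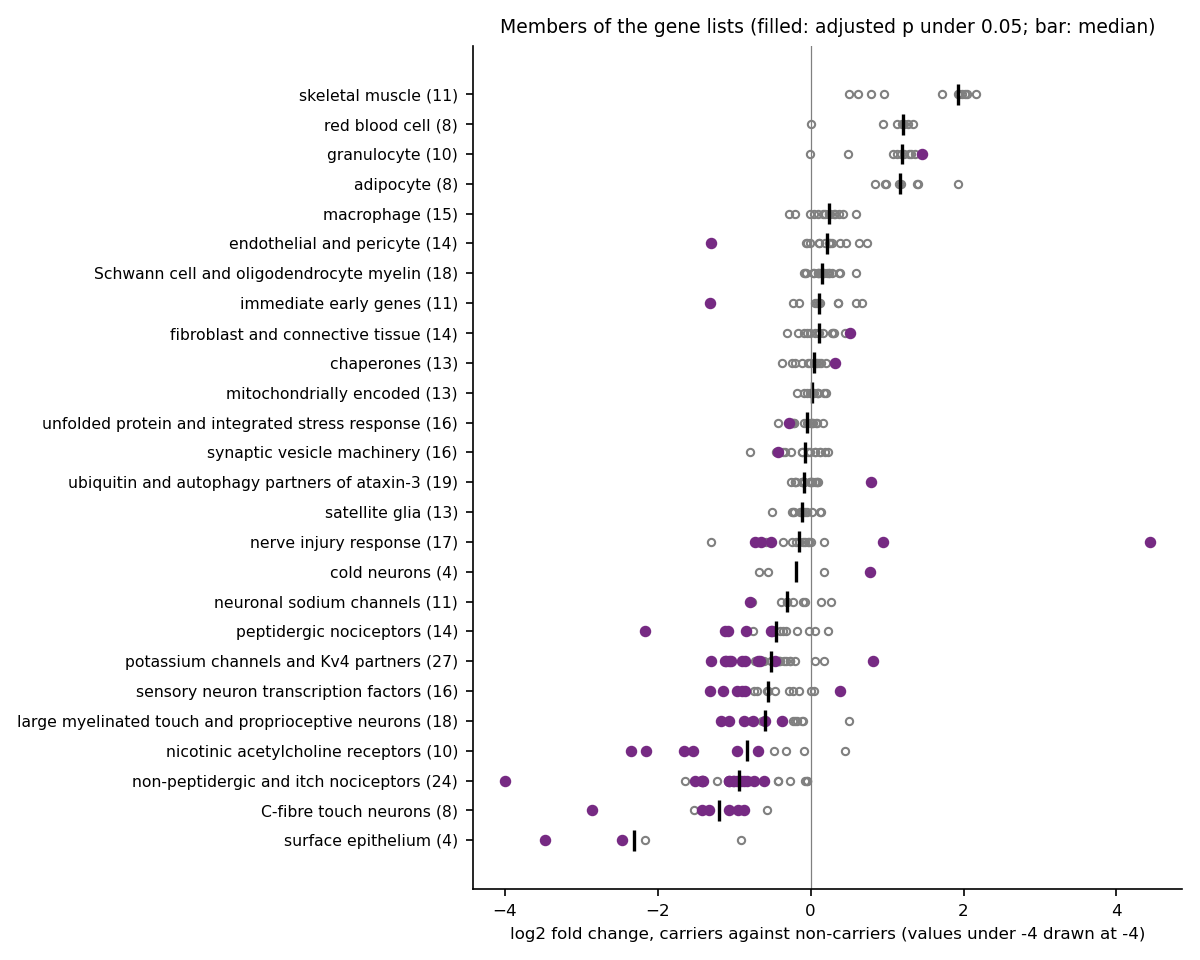
Log2 fold change of carriers against non-carriers (x axis) for each tested member of the gene lists (rows, number of members in brackets); filled points passed at an adjusted p under 0.05, open points did not, and black bars are list medians, with values under -4 drawn at -4. Neuronal lists such as non-peptidergic nociceptors (median -0.94) and nicotinic receptors (-0.83) lie left of 0, glial lists lie near 0, and muscle (1.92), red blood cell (1.21), granulocyte (1.20) and adipocyte (1.17) genes lie right of 0 with 1 filled point among them; the filled point at 0.79 in the row of ataxin-3 partners is Atxn3, which set the classes.

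The library labelled WT female 2, with its intermediate transcript level, was placed on genes called without it. The further limit, a mean of 1 CPM or more, was taken over all 12 libraries, WT female 2 included. For each gene called in the 11 other libraries with a mean of 1 CPM or more, the 3 markers left out, its position was the log2 CPM of the library set on a scale where 0 is the mean of non-carriers and 1 the mean of carriers. Over 1121 genes the median position was 0.41, with quartiles of 0.23 and 0.59, and 36.7% of the genes lay past the midpoint on the carrier side. Genes higher in carriers gave a median of 0.52 (284 genes) and lower genes 0.39 (837 genes). With the positions taken from CPM instead of log2 CPM, a choice made after seeing the data, the median was 0.48 in WT female 2 and 0.50 in WT male 1, which held 0 TPM of the transcript. With a single library there is no replicate of this value.

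Each of the other libraries was held out in the same way, with genes called again without it and without WT female 2. The other 5 carriers had medians between 0.88 and 0.99, and between 83.2 and 95.6% of genes lay past the midpoint. Of the non-carriers, WT male 2, WT male 3, WT female 1 and WT female 3 had medians between -0.10 and 0.17. WT male 1, with 0 TPM of the transcript, had a median of 0.45 over 1774 genes with a wide spread (quartiles 0.07 and 0.82), so by the median alone it stood as far along as WT female 2. Over called genes with a log2 fold change of at least 1 in either direction, a limit chosen after seeing the data, the median was 0.22 in WT male 1 and 0.41 in WT female 2. There the higher genes gave 0.53 in both, over 26 and 21 genes, and the lower genes 0.21 and 0.40, over 259 and 238 genes. Over called genes with a mean of 10 CPM or more WT male 1 lay further along, at 0.50 against 0.40, and at an adjusted p under 0.01 it lay less far, at 0.34 against 0.44. Leaving WT male 1 out raised the count of called genes to 2021 among the 11 libraries without WT female 2.

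**Figure D5:**
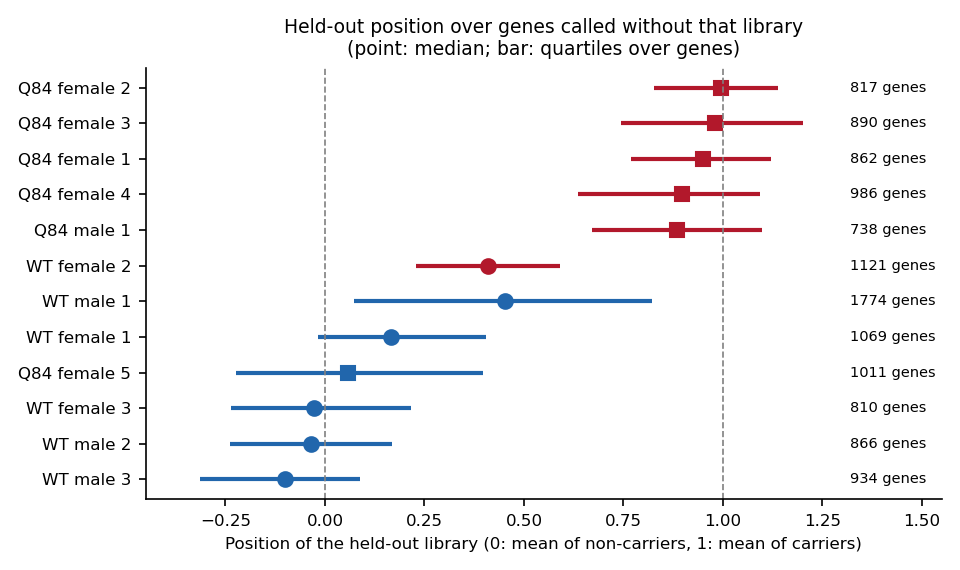
Median (point) and quartiles (bar) over genes of the position of each library between the mean of non-carriers (0) and that of carriers (1), on genes called without that library; numbers of genes stand at the right, red marks carriers, blue non-carriers, squares the Q84 label. The 5 carriers labelled Q84 lie between 0.88 and 0.99, WT female 2 lies at 0.41 and WT male 1 at 0.45, and the other non-carriers lie between -0.10 and 0.17.

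Single genes of WT female 2 lay anywhere between the classes. Among genes called without it with at least 1 CPM on average and a log2 fold change of at least 1 in either direction, those with positions nearest 1 were Slc10a2, Cd8a, a T cell co-receptor, Mstn, the muscle growth inhibitor myostatin, 1190005I06Rik, Gm44821 and Nps, with positions of 0.90 to 1.06. For Cd8a it held 0.632 CPM, beside carriers from 0.528 to 0.856 CPM and non-carriers from 1.13 to 2.47 CPM. Nearest 0 were A3galt2, an enzyme of glycolipid synthesis, Sst, Htr1a, a serotonin receptor, Mpo, Cabp7, a calcium-binding protein, and Gm47974, with positions of -0.03 to 0.05.

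In A3galt2 WT female 2 held 37.5 CPM, the other carriers 4.32 to 10.7 CPM and the non-carriers 23.6 to 44.6 CPM. It passed without WT female 2 (log2 fold change -2.49, adjusted p = 6.13e-05) and not with it (-1.75, adjusted p = 0.125). WT female 2 held 14.5 CPM of Htr1a, and the other carriers 6.31 to 7.21 CPM. By list, the median position of WT female 2 was 0.23 over 17 called genes of non-peptidergic and itch nociceptors, 0.26 over 14 potassium channel genes, 0.43 over 7 transcription factors, 0.51 over 6 peptidergic genes and 0.56 over 6 C-fibre touch genes. These lists differ in size and share genes, and the differences between them were not tested.

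The library labelled Q84 female 5 held 0.0612 TPM of the transcript and lay with the non-carriers over most genes. Over 1011 genes called in the 10 libraries of concordant label its median position was 0.058 (quartiles -0.22 and 0.40), and 20.1% lay past the midpoint. Over the genes of large change, as defined above, the median was -0.020. In Gfra2, Pou4f1, Kcnc1 and Ly86 it was the highest of all 12 libraries, with 64.1, 96.7, 13.5 and 196 CPM. Its positions there were -0.71, -1.12, -1.48 and -0.21, below the mean of non-carriers and away from the carriers.

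A few genes of Q84 female 5 stood on the carrier side, chosen as the 6 highest positions among genes of large change called in the 10 libraries of concordant label. Besides Chrna7 (0.92) they were Kcnd2 (0.76), Ptpro, a receptor tyrosine phosphatase (0.74), Hbq1b, a globin of the alpha family (0.62), Fbp1, an enzyme of gluconeogenesis (0.55), and Cryba2, a crystallin (0.53). Ptpro was at 10.8 CPM in Q84 female 5, beside 10.5 to 14.6 CPM in carriers and 4.84 to 8.28 CPM in the other non-carriers. Fbp1 and Cryba2 were at 2.18 and 1.17 CPM, the lowest non-carrier value in each, next to carriers of up to 1.90 and 0.941 CPM. By class their log2 fold changes in the 12 libraries were 0.88, -0.85, -0.89 and -1.20 for Ptpro, Hbq1b, Fbp1 and Cryba2. The calls of Ptpro, Fbp1 and Cryba2 were lost without Q84 male 1 (adjusted p = 0.118, 0.0635 and 0.0665), and that of Hbq1b without any of WT female 1, WT female 3, Q84 male 1 and Q84 female 1 (adjusted p up to 0.119).

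Genes that passed were spread over the chromosomes. On chromosome 12, which holds Atxn3, 42 of 620 tested genes passed (6.77%), and on chromosome 7 97 of 1388 (6.99%), beside 6.31% over all genes. These shares do not describe the size of the changes. Chromosome 7 holds the largest named falls, Nps, Gm44821, Mrgprb5 and Mrgprx3-ps. It also holds Nell1, the largest rise with a mean of 1 CPM or more and no overlap, and 18 of the 19 tested Mas-related genes. Whether large changes gather there was not tested. Among the numbered chromosomes the share ran from 4.13% on chromosome 17 to 9.004% on chromosome 3, and it was 8.04% on the X chromosome. Of the 48 called genes on the X chromosome 16 were lower in carriers, beside 823 of 1072 over all genes. The reason for this was not tested.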

How the data were processed

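Poly(A) RNA libraries of dorsal root ganglia, per the labels' protocols, were analysed from 12 deposited tables with estimated counts and TPM for 116313 transcripts each, both made by the authors. The submitters' processing notes name kallisto 0.46.2, STAR 2.7.10b and GRCm39, without saying which step each served. The deposited estimated counts were summed per gene through GENCODE M21 names, which matched 98.3% of transcripts; the unmatched ones held between 0.756 and 0.807% of counts and were left out. The deposited TPM values, scaled by the authors to transcript length and library total, served only for the classes and the Atxn3 transcripts.

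Sums were rounded to whole counts and tested with edgeR 4.0.16 (quasi-likelihood, TMM scaling, its filter for low counts, sex and carrier class in the model; class alone in the 8 female libraries) in R 4.3.3, with Benjamini-Hochberg adjustment over all genes tested and a threshold of 0.05. Positions used log2 CPM with a prior count of 2 and no adjustment for sex. The 30 pairs of libraries within a class differed by more than sampling noise (chi-square per degree of freedom of 38.0 or more). In simulated counts for the 12 libraries, 32% of genes changed 1.5-fold, 68% changed 2-fold and 96% changed 4-fold were recovered, with 4 false calls of 150. Those counts were drawn gene by gene, without shifts that many genes of a library share. The 4 false calls therefore do not measure how many of the 1072 called genes are false. Named were the 12 largest rises and the 12 largest falls with a mean of 1 CPM or more and no overlap, up to 4 called genes of smallest p per list, the neighbours of Atxn3, the 6 genes at each end of the position of WT female 2, up to 6 for Q84 female 5, and genes called by label; 1 gene so chosen is not reported here, but stays in the counts of its list. The classes, the 28 gene lists and the rules were chosen with earlier results of these data known. Alternatives were other scalings, filters, DESeq2 1.42.0, limma-voom (limma 3.58.1), models without sex or with a replicate block, length-scaled TPM, a limit of 50 TPM, the labels as groups, and each library left out.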

Additional observations from a re-analysis of the deposited data

Results flagged for a closer look

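Among 182 groups of 6 libraries of 1 class, 29 held a highest or lowest library that lay far from the other 5, judged by its gap as a share of the whole range. Chance flags about 1 in 20 such groups, and the named genes were partly chosen for the position of WT female 2 or Q84 female 5. The transcript that set the classes was among the 29, with 34.0 TPM in WT female 2 beside 62.7 to 79.4 TPM in the other carriers, as described above.

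WT female 2 was the high library among carriers in these genes: Mrgprx3-ps 8.43 CPM (others 0.142 to 0.350), Gm5581 0.981 CPM (others 0.0994 to 0.157), Slurp2 0.497 CPM (others 0.101 to 0.198), A3galt2 37.5 CPM (others 4.32 to 10.7), Sst 11.4 CPM (others 2.78 to 5.21), Gfra2 25.2 CPM (others 11.7 to 14.5), Lpar3 55.2 CPM (others 23.1 to 32.1), Rgs5 251 CPM (others 134 to 154), Gm47974 1.41 CPM (others 0.426 to 0.779), Htr1a 14.5 CPM (others 6.31 to 7.21), Ldb2 109 CPM (others 74.5 to 78.05), Chrna6 125 CPM (others 66.04 to 88.1) and Lgmn 360.3 CPM (others 254 to 289). It was the low library among carriers in Cpsf2 141 CPM (others 176 to 191) and Gprasp2 155 CPM (others 205 to 224). In each of these genes it lay on the side of the non-carriers.

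Q84 female 5 was the high library among non-carriers in Kcnc1 13.5 CPM (others 4.17 to 7.42), Pou4f1 96.7 CPM (others 46.95 to 58.6) and Vip 0.163 CPM (others 0.0236 to 0.0497). It was the low library in Slurp2 1.35 CPM (others 2.001 to 2.33), Chrna7 37.4 CPM (others 79.1 to 90.1), Lmo7 3.12 CPM (others 3.92 to 4.38) and Nell1 3.51 CPM (others 4.31 to 4.76). Of these 7 genes, Slurp2, Chrna7 and Vip lay towards the carriers, and Kcnc1, Pou4f1, Lmo7 and Nell1 lay away from them.

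Other libraries stood out in fewer genes. WT female 1 was the high non-carrier in Serpinb3a 7.002 CPM (others 0.290 to 0.875) and Krt1 20.2 CPM (others 1.61 to 2.03), and WT female 3 in Gm44821 109 CPM (others 77.1 to 87.2). Q84 male 1 was the high carrier in Cyp2j5 0.554 CPM (others 0.0130 to 0.188) and Mpo 7.84 CPM (others 0.995 to 1.85), and Q84 female 1 in Hspa8 6391 CPM (others 5884 to 6025).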

How the results depend on the processing

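The count of 1072 called genes in the 12 libraries became 1651 with DESeq2 and 1 with the libraries grouped by label, and under RLE, upper-quartile scaling, no filter, 1 CPM in 6 libraries, limma-voom, no sex term, length-scaled TPM and the 50 TPM limit it ran from 865 to 1263. The highest of these, 1263, came with the 50 TPM limit, which puts WT female 2 (34.0 TPM) among the non-carriers. With each library left out it ran from 530 to 1367, in the 11 libraries without WT female 2 (1337) from 874 to 2021, in the 10 of concordant label (1194) from 582 to 2000 and in the 8 female libraries (406) from 124 to 1018; the lowest counts came without Q84 male 1 in the first 2 fits and without WT female 3 in the others, the highest without WT male 1, or without WT female 2 in females. DESeq2 called 1847 genes in the 10 libraries and 1025 in the female ones. With the replicate number as a block the counts were 480, 727, 728 and 4, in the same order. In the 12 libraries 19 of 78 named called genes then lost their call. Numbers 4 and 5 each belong to 1 library, so Q84 female 4 and Q84 female 5 add nothing to the class comparison there. Among the females, WT female 2 and Q84 female 2 share a number, are both carriers and add nothing either. These counts therefore rest on fewer libraries. The labels do not say that numbers pair samples, and deviations of same-numbered libraries correlated by -0.26 to 0.39, over 0.1 in 5 of 9 pairs. Of the 78 named called genes 31 lost their call in the 8 female libraries and 23 without Q84 male 1. In the female libraries 3 of 14 peptidergic, 2 of 8 C-fibre touch and 3 of 18 large myelinated genes fell. Falls there were 2 of 27 for potassium channels, 2 of 10 for nicotinic receptors and 2 of 16 for transcription factors. For sodium channels, synaptic vesicles and nerve injury 0 fell, beside 1.77% of all genes tested in females. The position of WT female 2 was 0.41, and 0.48 on the CPM scale, and that of Q84 female 5 turned from 0.058 to -0.020 over genes of large change, both chosen after seeing the data. The log2 fold change of Ndufb1-ps turned from -0.063 to 0.046 without sex, 0.018 with the block, 0.065 at 50 TPM, 0.18 by label and 0.062 in the 10 libraries; with each library left out it ran from -0.14 to 0.023, the highest without Q84 female 5. That of Fbln5 turned to -0.010 by label. Fits with fewer libraries hold fewer samples, and the cause of these changes was not tested. Genes changed by 1.5-fold were mostly missed at this depth and number of libraries in simulated counts.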
